A study of Homo sapiens with 3 samples.

Results

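Kallikreins are secreted serine proteases whose genes lie side by side on the long arm of chromosome 19. Here 10 of them were followed across 3 human prostate cancer cell lines: KLK1, KLK2, KLK3, KLK4, KLK5, KLK6, KLK7, KLK10, KLK11 and KLK15. They were chosen by gene name and are 10 of the 58735 gene models in the count and FPKM tables, and all 10 were found there on chromosome 19. RNA from each line was sequenced as 1 library, so no value has a replicate and no difference between lines has a replicate check. LNCAP, an androgen-responsive line from a lymph node metastasis, represented androgen-dependent prostate cancer in the series design. PC3, from a bone metastasis, and DU145, from a brain metastasis, represented castration-resistant cancer, the disease that progresses under androgen deprivation. None of the groups carries a stated treatment, time or engineered allele; all were cultured with 10% FBS, and the labels name several media without assigning one to a line. Each line is a single established line, so line and disease class cannot be told apart.

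Kallikreins are made as inactive precursors and are switched on when a short propeptide is cut off, often by another kallikrein. In the prostate, luminal cells make large amounts of KLK3, prostate-specific antigen, and its transcription responds to androgen. Several other kallikreins are better known from skin, brain and glandular epithelium, where they act in shedding of the outer skin layer, in protein turnover and in kinin release.

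The libraries held between 15319045 and 15878546 counts. Levels are given as CPM, a count as a share of the library's TMM-scaled total, or as the deposited FPKM, which also divides by gene length. A count of 0 allows up to 3 counts, which corresponds to 0.192 CPM for LNCAP, 0.196 for PC3 and 0.191 for DU145; intervals and such limits cover counting error only. The epithelial keratin genes KRT8 and KRT18 were read in each line, at no less than 189.5 CPM, whereas the basal factor gene TP63 had no counts in any library. Of 5 luminal markers reported here, 2 were at least 4-fold lower in PC3 than in LNCAP and 3 in DU145. Over all genes tested, 13.4% were lower and 13.0% higher in PC3, and 12.1% and 13.7% in DU145. ACPP and FOLH1 reached 1 CPM in LNCAP alone, so their lower calls follow in part from the filter at 1 CPM. Of 3 basal markers above the filter, CD44 and ITGB4 were higher and KRT14 lower in both lines, and among 3 mesenchymal markers VIM and ZEB1 were higher and FN1 lower in both. CD44 reached 1 CPM only in PC3 and DU145 and KRT14 only in LNCAP, so their calls also follow in part from the filter. Of 6 markers of leukocytes, endothelium and fibroblasts, 4 had a count in LNCAP, 3 in PC3 and 2 in DU145, with summed levels of 9.60, 20.6 and 0.893 CPM; LUM was at 0 throughout, and most of each sum was 1 gene, VWF in LNCAP and PECAM1 in PC3 and DU145.

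The stretches of DNA just before the start sites of KLK3, KLK2 and KLK4 are shown because these were the members with the highest levels. Each is 250 bases long, read 5′ to 3′ on the strand of the gene (RefSeq, GRCh38.p14). They are chr19:50854665-50854914 on the plus strand for KLK3, chr19:50873189-50873438 on the plus strand for KLK2, and chr19:50910739-50910988 on the minus strand for KLK4. Capitals mark matches to the full androgen response element, AGAACA and TGTTCT with 3 free bases between them, with at most 3 mismatches in the 12 fixed letters.
KLK3: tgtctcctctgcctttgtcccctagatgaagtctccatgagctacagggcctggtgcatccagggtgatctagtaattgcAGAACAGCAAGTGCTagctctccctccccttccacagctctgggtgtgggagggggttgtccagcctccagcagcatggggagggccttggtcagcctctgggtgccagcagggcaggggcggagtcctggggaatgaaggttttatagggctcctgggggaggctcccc
KLK2: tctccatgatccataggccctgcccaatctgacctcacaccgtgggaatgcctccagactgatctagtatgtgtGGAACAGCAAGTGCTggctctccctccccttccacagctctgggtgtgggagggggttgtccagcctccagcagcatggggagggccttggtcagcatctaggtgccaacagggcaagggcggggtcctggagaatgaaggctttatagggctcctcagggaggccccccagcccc
KLK4: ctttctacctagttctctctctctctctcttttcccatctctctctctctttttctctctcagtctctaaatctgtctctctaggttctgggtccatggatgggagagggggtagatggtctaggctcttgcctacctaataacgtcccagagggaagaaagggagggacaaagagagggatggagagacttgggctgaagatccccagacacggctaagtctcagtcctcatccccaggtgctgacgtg
The match in KLK3 began at -170 from the start site with 2 mismatches, and that in KLK2 at -176 with 3. A match within the limit of 3 stood in 10.8% of all 35116 promoter windows of 300 bases (250 before and 50 after a start site), and one with at most 2 mismatches in 1.41%. The element is its own reverse complement, so both strands were covered. The stretches of KLK3 and KLK2 were 85.8% identical over 240 aligned bases and shared an unbroken run of 80 bases. The KLK4 stretch shown was 59.0% identical to KLK3 with no shared run over 8 bases. KLK4 has a second start site, at 50911395, whose stretch is not shown. Its window held no match within the limit of 3 mismatches. It was 59.1% identical to KLK3 with no shared run over 9 bases.

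Promoter windows were found for 9 of the 10 members, 15 windows in all, and KLK1 was not matched. Among them only KLK3 held the half-site AGAACA, searched on both strands and present in 14.8% of all windows; it lies inside the full element described above. The letters TATAAA, searched on the gene's strand and present in 7.33% of all windows, stood at -30 in 1 of the 2 windows of KLK15. The GC box GGGCGG, on either strand, stood in 7 of the 15 windows, those of KLK2, KLK3, KLK6, KLK7 and KLK11, against 45.0% of all windows. These are matches of letters, with no measurement of a bound factor.

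KLK3 (ENSG00000142515, chromosome 19, 50854915 to 50860764) was the dominant kallikrein of LNCAP. It had 35507 counts in LNCAP and 0 in each of PC3 and DU145, so only the LNCAP library held it. Its level in LNCAP was 2271 CPM (95% Poisson interval 2248 to 2295), and its FPKM of 481 ranked 29 among 19951 protein-coding models. By this count KLK3 was at least 11572-fold lower in PC3 and at least 11863-fold lower in DU145. In bulk RNA, fewer expressing cells and less RNA per cell cannot be told apart.

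KLK2 (ENSG00000167751, chromosome 19, 50861568 to 50880567) encodes a trypsin-like protease that can activate the KLK3 precursor. It had 5601 counts in LNCAP and 0 in each of the other libraries, the same on and off pattern. The level in LNCAP was 358 CPM (349 to 368), at least 1825-fold above PC3 and at least 1871-fold above DU145. Coding sequences of KLK2 and KLK3 were 85.4% identical, the closest of the 45 pairs of members, the others lying between 61.8% and 78.0%. Transcripts of this pair shared 11 exact stretches of 50 bases, which is 0.430% of those in KLK3 and 0.303% of those in KLK2, and no other pair shared one; how the counting treated such reads is not given in the sources used here. The KLK2 model of the files also begins only 803 bases beyond the end of KLK3 and 11.9 kb before the RefSeq start site of KLK2, so reads in exons that the model places in that interval would be counted as KLK2.

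KLK4 (ENSG00000167749, chromosome 19, 50906352 to 50910738, minus strand) is known for its part in tooth enamel maturation and is also made in prostate. The LNCAP library had 2857 counts of it, PC3 had 1 and DU145 had 0. LNCAP thus stood at 183 CPM (176 to 190), and the other libraries were at or under the limit of 3 counts. PC3 was 2793-fold lower (95% counting interval 501 to 110374, from 1 count) and DU145 at least 955-fold lower.

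KLK15 (ENSG00000174562, chromosome 19, 50825289 to 50837213, minus strand), another protease able to activate the KLK3 precursor, was far weaker. The counts were 62 for LNCAP, 0 for PC3 and 1 for DU145. That is 3.97 CPM in LNCAP (3.04 to 5.08), and an FPKM rank of 9823 among protein-coding models against 278 for KLK4 and 589 for KLK2. PC3 was at least 20.2-fold lower, and DU145 was 62.1-fold lower (10.7 to 2494, from 1 count). On a scale of log2(FPKM + 1) the differences of KLK15 were -1.43 and -1.39, short of the 4-fold threshold, which is 2 on that scale. An antisense model that overlaps KLK15 held 4 counts, all in LNCAP, and the strand setting of the counting is not given in the sources used here.

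**Figure D1:**
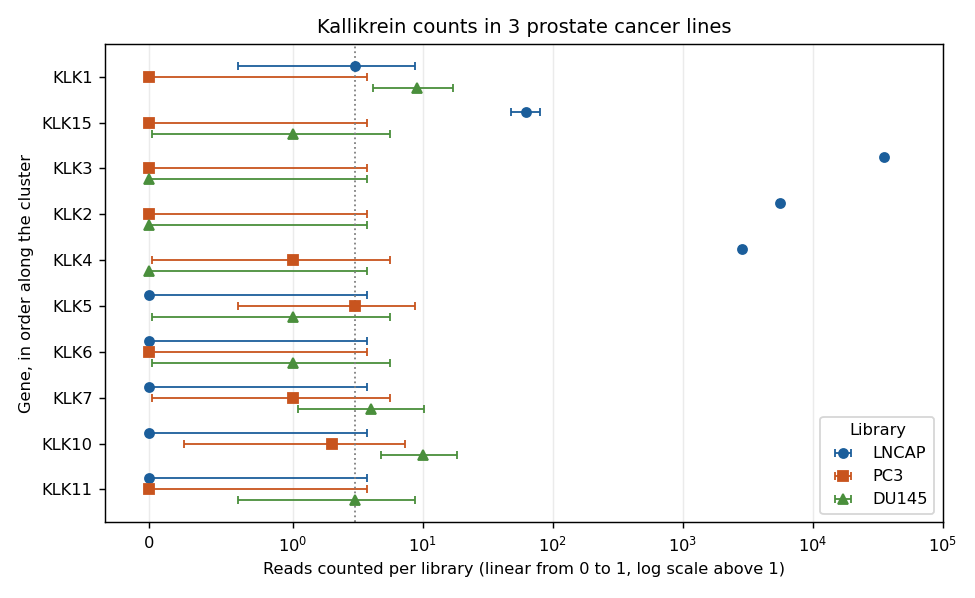
Reads counted per library for the 10 kallikreins, in order along the cluster, with 95% Poisson intervals; the axis is linear from 0 to 1 and logarithmic above, and the dotted line marks 3 counts. KLK3, KLK2, KLK4 and KLK15 reach 35507, 5601, 2857 and 62 counts in LNCAP, and no other point exceeds 10 counts.

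Within LNCAP the members together took 44030 counts, 0.286% of the library. KLK3 made up 80.6% of these (Wilson 95% interval 80.3 to 81.0), KLK2 12.7% (12.4 to 13.0), KLK4 6.49% (6.26 to 6.72) and KLK15 0.141% (0.110 to 0.180). PC3 had 7 kallikrein counts over the 10 members and DU145 had 29. Per length, FPKM in LNCAP fell in the order KLK3, KLK4, KLK2 and KLK15, with KLK3 5.18 times KLK4 and KLK4 1.69 times KLK2. The order of KLK4 and KLK2 rested on the listed lengths of 1935 and 6394 bases, which sum the exons of all isoforms. With the longest protein-coding transcript of each gene in GENCODE release 29 the ratio of KLK4 to KLK2 was 1.14, and with the shortest it was 0.543, so these 2 neighbours in the order were not separated. KLK3 stayed first with each of these lengths, at 5.88 to 11.5 times KLK2 and 5.18 to 10.8 times KLK4.

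The other 6 members did not reach 1 CPM in any library and were left out of the calls. KLK1 (tissue kallikrein, which releases kinins from kininogen) had 3 counts in LNCAP, none in PC3 and 9 in DU145. KLK5, a skin protease that starts the cascade of skin shedding, had 0, 3 and 1 counts in the same order of lines. KLK7, the chymotrypsin-like partner of KLK5 in skin, had 0, 1 and 4 counts. None of these 3 genes exceeded 9 counts in a library.

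KLK10, a gene known for its loss in breast cancer cells, had no counts in LNCAP but 2 in PC3 and 10 in DU145, the most of any of these 6. KLK6, a protease of the nervous system, had a single count, in DU145, and KLK11, a trypsin-like protease, had 3 counts, all in DU145. DU145 was thus the library in which each of the 6 had at least 1 count, 28 in all, against 6 counts over 3 genes in PC3 and 3 counts of 1 gene in LNCAP. For KLK1, DU145 was 2.99-fold above LNCAP with an interval that includes 1 (0.747 to 17.2), and PC3 had no counts. For KLK10, DU145 was 4.88-fold above PC3 (1.04 to 45.8, from 2 PC3 counts), and LNCAP had no counts. Levels of 0.638 CPM for KLK10 and 0.574 CPM for KLK1 in DU145 were the highest of these 6, and differences among lines for the other 4 were not detectable at this depth.

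Calls across all genes put these values in context. Calls needed a 4-fold difference, computed with 0.5 counts added to each library, and an exact counting interval without the ratio 1. They were made for the 18025 genes that reached 1 CPM somewhere. Of the 10 members, 4 were tested. In PC3 against LNCAP, these 4 were called lower, while 13.4% of all genes tested were lower and 13.0% higher. In DU145 against LNCAP, the same 4 genes were lower and none higher, against 12.1% lower and 13.7% higher over all genes. KLK2, KLK3, KLK4 and KLK15 passed the filter through LNCAP alone, so that they were lower elsewhere follows in part from the filter. Between PC3 and DU145 no member was called in either direction, where 8.54% of all genes were higher in PC3 and 10.6% lower; each of the 4 had at most 1 count in these libraries, so no fold could be given. Both comparisons with LNCAP share its library.

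**Figure D2:**
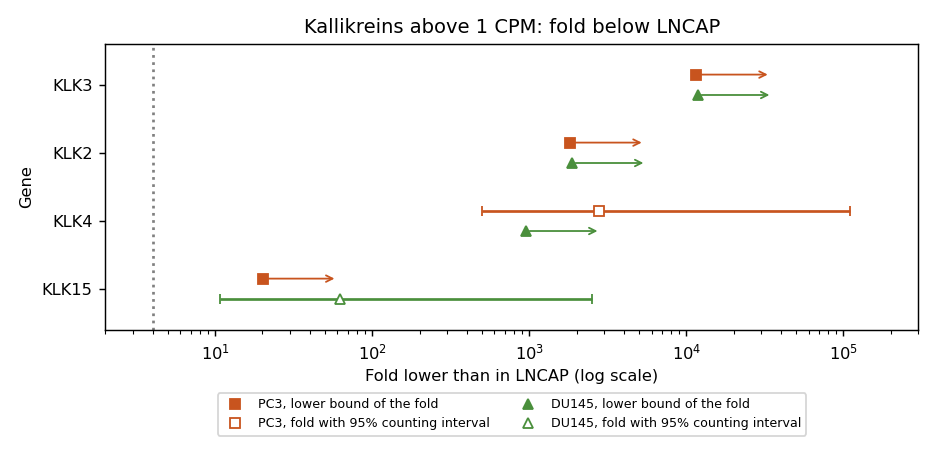
Fold by which PC3 and DU145 lay below LNCAP for the 4 kallikreins above 1 CPM, on a log axis. Filled points with arrows are lower bounds where the line had 0 counts, open points are folds with 95% counting intervals, and the dotted line marks 4-fold; the bounds run from 20.2-fold for KLK15 in PC3 to 11863-fold for KLK3 in DU145.

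KLK3 led the genes read in LNCAP alone. Of those reaching 1 CPM there, 359 had 0 counts in both PC3 and DU145. Ordered by LNCAP level, KLK3 came first with 2271 CPM and KLK2 ranked 4 with 358 CPM. SYT4, a synaptotagmin gene, at 458 CPM and GPR158, an orphan receptor gene, at 440.3 CPM came between them. The likeness here is only of 3 libraries.

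Kallikrein counts in LNCAP came almost all from 1 end of the cluster. From KLK1 to KLK4, a stretch of 91.6 kb (chromosome 19, 50819148 to 50910738), all 7 gene models had counts in LNCAP, 44159 in sum, against 2 counts in PC3 and 10 in DU145. Besides the 5 members there, KLKP1, a transcribed pseudogene between KLK2 and KLK4, stood at 125, 1 and 0 counts in LNCAP, PC3 and DU145. It was 122-fold lower in PC3 (21.5 to 4866, from 1 count) and at least 41.8-fold lower in DU145. From KLK5 to KLK14, a stretch of 140.9 kb, the 17 models together had 6 LNCAP counts, 12 PC3 counts and 34 DU145 counts. Of the kallikreins there that are not members, KLK8, KLK9 and KLK12 had no counts in any library, KLK13 had 7 counts in DU145 alone, and KLK14 had 6, 6 and 8 counts. Antisense models over KLK5, KLK6, KLK7 and KLK10 had no counts in any library.

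Beside the cluster, C19orf48, ACP4 and CTU1 were read in each line, but many other models were not. LNCAP had counts for 11 of the 15 models within 200 kb before KLK1, PC3 for 9 and DU145 for 10. The 200 kb after KLK14 held 19 models, of which LNCAP had counts for 3, PC3 for 2 and DU145 for 1. C19orf48, the nearest protein-coding gene before KLK1, was at 448 CPM for LNCAP, 208 for PC3 and 108 for DU145. That is 2.15-fold lower in PC3 (2.06 to 2.24), under the threshold, and 4.14-fold lower in DU145 (3.93 to 4.37). ACP4, an acid phosphatase gene just beyond it, was 5.32-fold lower in PC3 (3.10 to 9.71) and 9.69-fold lower in DU145 (4.88 to 21.9), from 87 LNCAP counts. On the far side, CTU1, a tRNA modification gene and the first model after KLK14, stood at 12.2 CPM in LNCAP, against 32.2 for PC3 and 14.2 for DU145, and no pair of lines was 4-fold apart. The fold below LNCAP at KLK2, KLK3 and KLK4 was thus larger than at C19orf48 and ACP4, and CTU1 was not below LNCAP in either line.

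**Figure D3:**
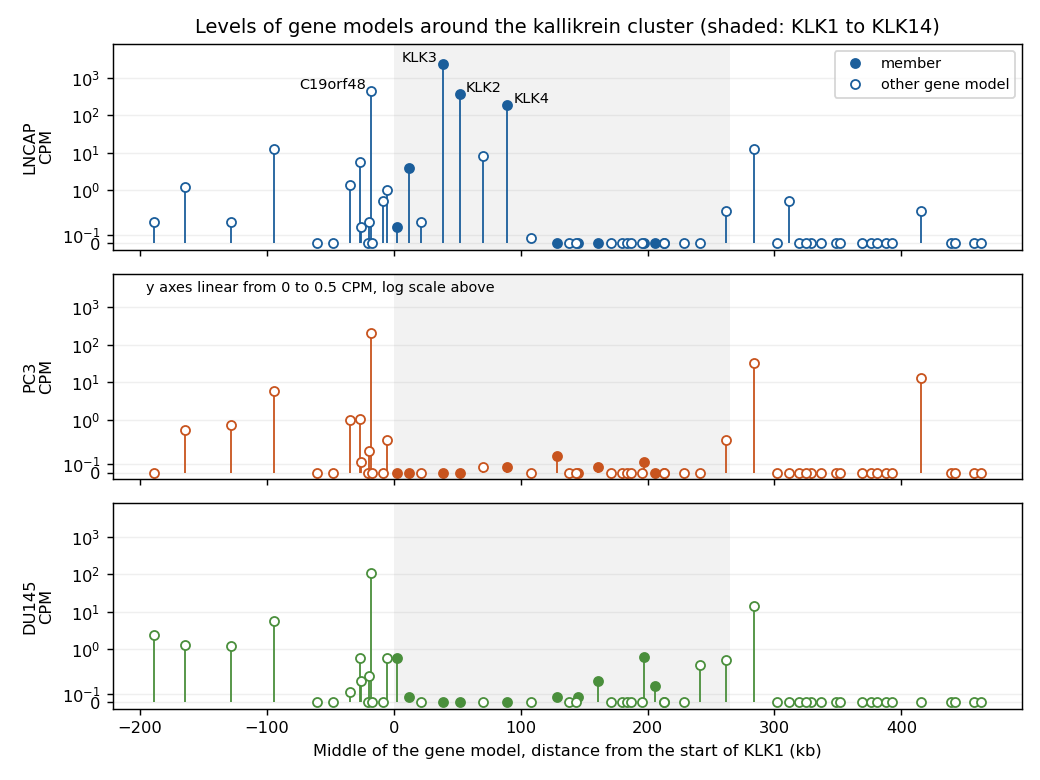
CPM of the 59 gene models from 200 kb before KLK1 to 200 kb after KLK14, by distance of the middle of the model from the start of KLK1, with 1 panel per library and a y axis that is logarithmic above 0.5 CPM. Filled points are the 10 kallikreins followed here; KLK3, KLK2 and KLK4 stand out in LNCAP and lie at or near 0 in PC3 and DU145, while C19orf48 is read in each line.

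Genes for transcription factors and coactivators that work in prostate epithelium were set beside the kallikreins. Of 9 such genes, 2 were lower in PC3 and 3 in DU145, and none was higher. Among all genes tested, 13.4% were lower and 13.0% higher in PC3, and 12.1% and 13.7% in DU145. The list's median log2 ratio was -0.28 in PC3 and -0.52 in DU145, beside -0.01 and -0.0033 over all genes tested. GRHL2, an epithelial transcription factor gene, had 4206 LNCAP counts, 8 in PC3 and none in DU145, so that it was 514-fold lower in PC3 (261 to 1191) and at least 1405-fold lower in DU145. GRHL2 passed the filter through LNCAP alone, so its lower calls follow in part from the filter. GATA2 was 6.21-fold lower in PC3 (5.77 to 6.69) and 12.2-fold lower in DU145 (11.03 to 13.45). HOXB13, a prostate homeobox gene, was read at 329 CPM in LNCAP and 387 CPM in PC3 and had no counts in DU145, at least 1717-fold lower than in LNCAP. The pioneer factor gene FOXA1 stood at 417 CPM in LNCAP, against 241 for PC3 and 116 for DU145, under 4-fold apart. The coactivator genes NCOA1, NCOA2, NCOA3, EP300 and CREBBP were under 4-fold apart in each pair of lines. Kallikrein counts near 0 in PC3 thus went with HOXB13 and FOXA1 still read there and with GRHL2 low; the part of any of these in the kallikrein levels was not tested.

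Membrane serine proteases of the same epithelia, some of which cut precursors of other proteases, were lower in both lines for 4 of 4 genes, beside 13.4% of all genes tested in PC3 and 12.1% in DU145. HPN and PRSS8 passed the filter through LNCAP alone, so their lower calls follow in part from the filter. In the order LNCAP, PC3 and DU145, TMPRSS2 stood at 778, 8.50 and 0 CPM, and HPN, which encodes hepsin, at 133, 0 and 0.255 CPM. The matriptase gene ST14 stood at 295, 0.262 and 17.9 CPM and the prostasin gene PRSS8 at 48.4, 0.0654 and 0.766 CPM. Between the 2 castration-resistant lines, where no kallikrein was called, ST14 was 68.5-fold lower in PC3 than in DU145 (26.5 to 253), and TMPRSS2 was at least 44.4-fold higher in PC3.

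Genes for proteins that kallikreins cut went both ways. Of 13 listed, 11 passed the filter, and 5 were higher and 6 lower in PC3, while 3 were higher and 7 lower in DU145. The shares over all genes tested were 13.0% higher and 13.4% lower in PC3, and 13.7% and 12.1% in DU145. Of the 11, SEMG1, SEMG2, KNG1 and DSC1 passed the filter through LNCAP alone, and PTHLH and PLAU through PC3 and DU145 alone. Calls of these genes against LNCAP thus follow in part from the filter. The semenogelin genes SEMG1 and SEMG2, whose products KLK3 cuts in semen, had 41 and 52 counts in LNCAP and none in PC3 or DU145; they are close copies whose reads could be shared. KNG1, the kininogen gene cut by KLK1, had 43 counts in LNCAP and none elsewhere. IGFBP3, a growth factor binding protein that KLK3 can cut, fell from 366 CPM in LNCAP to 51.0 in PC3 and 13.9 in DU145. In that order of lines the urokinase gene PLAU stood at 0.896, 470 and 753 CPM, and the thrombin receptor gene F2R at 10.7, 410.0 and 44.1 CPM. F2RL1, the gene of the receptor PAR2 that several kallikreins activate, was 4.77-fold higher in PC3 and 1.49-fold lower in DU145, which is under the threshold.

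Of 12 inhibitor genes listed, 4 reached 1 CPM in a library, beside 18025 of all 58735 gene models. SPINK5, SERPINF2 and SERPING1 did so only in PC3 or DU145, so that higher calls there follow in part from the filter. SERPINA3, the gene of the main plasma inhibitor that binds KLK3, had no counts in any library. SPINK5, whose product inhibits KLK5 and KLK7 in skin, had 1 LNCAP count, 25 in PC3 and 58 in DU145 and was higher in both lines, and SERPINF2 was higher in PC3. In the same order SERPINA1, the antitrypsin gene, stood at 2.05, 0.327 and 59.5 CPM, and SERPING1 at 0, 0.0654 and 11.8 CPM. SERPING1 and SERPINA1 were called higher in DU145, and SERPINA1 was called lower in PC3. Of the 4 inhibitor genes tested, 2 were thus higher and 1 lower in PC3, and 3 higher and 0 lower in DU145. The shares over all genes tested were 13.0% higher and 13.4% lower in PC3, and 13.7% and 12.1% in DU145. The largest inhibitor sum, 75.6 CPM, was in DU145 and was mostly SERPINA1, against 2.69 CPM in LNCAP and 3.66 CPM in PC3. Kallikreins were near 0 in both PC3 and DU145.

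**Figure D4:**
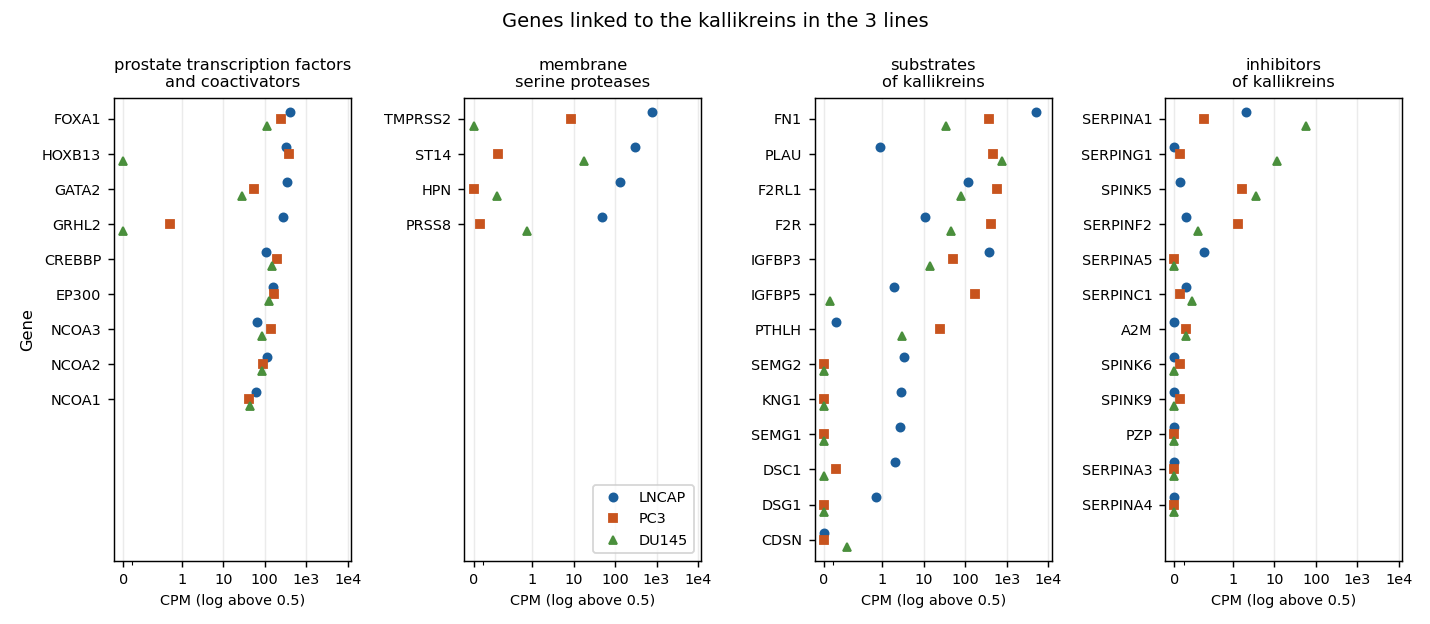
Levels in each line of 4 gene lists linked to the kallikreins, on an x axis of CPM that is logarithmic above 0.5. GRHL2 lies at 269 CPM in LNCAP and at or under 0.523 CPM in the other lines, the 4 membrane proteases are highest in LNCAP, and SERPINA1 is highest in DU145.

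As a class, PC3 and DU145 were set against LNCAP with edgeR's quasi-likelihood test, which has 1 residual degree of freedom. It takes the difference between these 2 lines, shared in part across genes, as the spread, and LNCAP adds none. KLK2 and KLK3, at 0 counts in both lines, show no such difference of their own. PC3 and DU145 are different lines, so p-values from edgeR, DESeq2 or limma-voom measure no spread between replicates of a line. The fitted log2 differences were -18.11 for KLK3, -15.44 for KLK2, -12.14 for KLK4 and -6.63 for KLK15. With Benjamini-Hochberg adjustment over 18025 genes, edgeR gave 0.266 for KLK2, KLK3 and KLK4 and 0.449 for KLK15. None of the members passed 0.05, and neither did any other gene: 0% were called lower, though 1746 had an unadjusted p under 0.05. DESeq2 called KLK3 (adjusted p = 3.2e-23), KLK2 (3.7e-16) and KLK4 (2.7e-11) lower but not KLK15 (0.22), with 388 genes, 2.55% of those it adjusted, lower and 914 higher. limma-voom called 0 genes, with 1334 at an unadjusted p under 0.05. Fitted differences of genes with 0 counts depend on the added count and are no bounds.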

How the data were processed

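RNA sequencing of LNCAP, PC3 and DU145 gave 1 library per line. The authors deposited, for each library, a table of whole-number read counts per gene and a table of FPKM values. Dividing each count by its listed length and a library constant gave back the deposited FPKM. Per the submitters' processing notes, TopHat2 2.0.9, Bowtie2 2.0.6, Cuffdiff 2.1.1 and Cufflinks 2.1.1 were named, with no roles. Which program counted reads, with what strand setting and build, is not given in the sources used here. File coordinates are those of GENCODE release 29 (GRCh38) for the members.

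TMM factors (edgeR 4.0.16, R 4.3.3) were 1.016 for LNCAP, 0.998 for PC3 and 0.987 for DU145. Ratios have exact 95% conditional binomial intervals (scipy 1.17.1, Python 3.11.15); they compare libraries, not conditions. Where 1 library had 0 counts, the fold is a bound with 3 counts there, which leaves out the counting error of the other library; where both had 3 or fewer, none is given. DESeq2 1.42.0 and limma 3.58.1 were alternatives. All 10 members were named; from other lists, genes called in a comparison could be named, and from the genes most like KLK3 the first 4. Some genes that the lists and this rule would take in are not reported here, and list counts leave them out. Members and lists were chosen with earlier results of these data known. The neighbours of the cluster, alternative transcript lengths, coding-sequence identities and the 2-mismatch search were chosen after values were seen. Protein sequences were not used here.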

Additional observations from a re-analysis of the deposited data

Results flagged for a closer look

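Genes were singled out where PC3 and DU145 were called in opposite directions from LNCAP; no kallikrein was among them. SERPINA1, a protease inhibitor gene, was 6.26-fold lower in PC3 and 29.1-fold higher in DU145, which put PC3 182-fold below DU145. IGFBP5, the gene of a growth factor binding protein that kallikreins can cut, was 90.6-fold higher in PC3 and 29.1-fold lower in DU145 from 1 count, a distance of 2632-fold. CD33, which lies beyond the KLK14 end of the cluster, had 6 LNCAP counts, 197 in PC3 and none in DU145, so that PC3 was at least 67.3-fold above DU145. With 1 library per line the difference between lines was not tested beyond counting error.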

How the results depend on the processing

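Pairwise ratios of KLK2, KLK3, KLK4 and KLK15 were recomputed with other scalings, filters, added counts and fold thresholds and from FPKM. Of these, 115 were called or not called as before and 2 lost their call, both of KLK15 with 1 added to FPKM. The 115 include the ratios of PC3 against DU145, where each gene had at most 1 count per library and no setting could give a call. KLK15 was not tested with the filter at 5 CPM, and that loss is not among the 2. The members called lower than in LNCAP numbered 3 to 4 in PC3 and in DU145 across these settings. The share of all genes tested that was called lower ran from 4.14% to 23.6% in PC3 and from 3.69% to 23.1% in DU145. With no filter, KLK10 was also called higher in DU145 than in LNCAP, as were 3067 of all 32676 genes. KLK1 and KLK10 were then called lower in PC3 than in DU145, 2 members in place of 0, beside 7.61% of all genes. These calls arose because 10 members and not 4 were then tested. In the class comparison DESeq2 called 3 members in place of 0; the cause was not tested. The ratio of KLK4 to KLK2 per length turned to 0.543 with the shortest transcripts. Depth limits the 6 weak members, which had at most 10 counts.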
